A study of Rattus norvegicus with 6 samples.

Results

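Voltage-gated sodium channels carry the rapid inward current that starts the action potential of heart, nerve and skeletal muscle cells. A pore-forming alpha subunit is joined by beta subunits, single-pass membrane proteins that set its gating and its place in the membrane. The FGF homologous factors, of which Fgf12 encodes one, stay inside the cell, bind the tail of the alpha subunit and shift its inactivation. The genes described here are the alpha subunit genes Scn1a, Scn3a, Scn4a and Scn7a, the beta subunit genes Scn2b, Scn3b and Scn4b, and Fgf12. All probe sets annotated to exactly 1 of these 8 genes were taken, which gave 12 of the 31042 probe sets tested, where the annotation named 14217 genes in all.

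The hearts came from male Dahl S rats, an inbred model of salt-sensitive hypertension, and from male S.LEW(10)x12x2x3x5 congenic rats, which carry a segment of Lewis (LEW) rat chromosome 10 on the Dahl S background. The rats of both strains shared a birth date, left their dams at 30 days, then ate chow with 0.3% salt, and their hearts were taken at 53 days. Each strain gave 3 Affymetrix Rat Expression Array 230 2.0 chips from 6 rats, and each chip carried heart RNA pooled from 2 rats, so the spread between arrays is that between pools and not between single animals. Whole hearts were used, with no separation of chambers, and no source used here gives the borders of the Lewis segment. The comparison asks which cardiac transcripts differ between the strains, and every difference below is the congenic mean minus the Dahl S mean, in log2 units.

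The arrays correlated with each other at 0.9935 to 0.9976 (Pearson, over all tested probe sets). Heart muscle markers were bright on every array. The summed signal of the 9 measured of 10 listed, among them Myh6, Tnnt2 and Ryr2, ran from 175 to 179 on the Dahl S arrays and from 174 to 175 on the congenic arrays (linear scale, in units of 1000). The spiked hybridization controls were brighter on Dahl S array 3 (mean log2 level 11.54) and congenic array 2 (11.55) than on the other 4 arrays (10.67 to 10.83). Limma called 11 probe sets at an adjusted p under 0.05 (Benjamini-Hochberg), which is 0.0354% of those tested.

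The probe sets differed widely in how far their signal stood above genes that the heart is not expected to use. As a guide, 28 probe sets of olfactory, vomeronasal and taste receptor genes had mean log2 levels from 3.53 to 7.08, with a median of 4.27 and a 90th percentile of 5.0. Another 25 probe sets of genes restricted to other organs, such as insulin and rhodopsin-pathway genes, had a median of 4.24 and a 90th percentile of 6.56. The probe sets of Scn1a, Scn7a and Scn4b, the brighter one of Scn3b and 2 of the 3 of Fgf12 lay above every probe set of both guides. Those of Scn3a, the brighter one of Scn2b, the dimmer one of Scn3b and the dimmest of Fgf12 lay above the 90th percentile of the receptor guide, but 4 or 5 of the 25 organ-restricted probe sets were at least as bright. The Scn4a probe set and the dimmer Scn2b probe set lay inside the range of both guides, with 8 and 22 of the 28 receptor probe sets at least as bright. The guide genes of smallest p, Cyp7a1 and Ctrb1, differed between the strains by 0.16 and 0.18 (limma adjusted p = 0.762 and 0.773). Brightness also depends on each probe set's own sequence, so it ranks confidence in a signal and not the abundance of these transcripts.

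**Figure D1:**
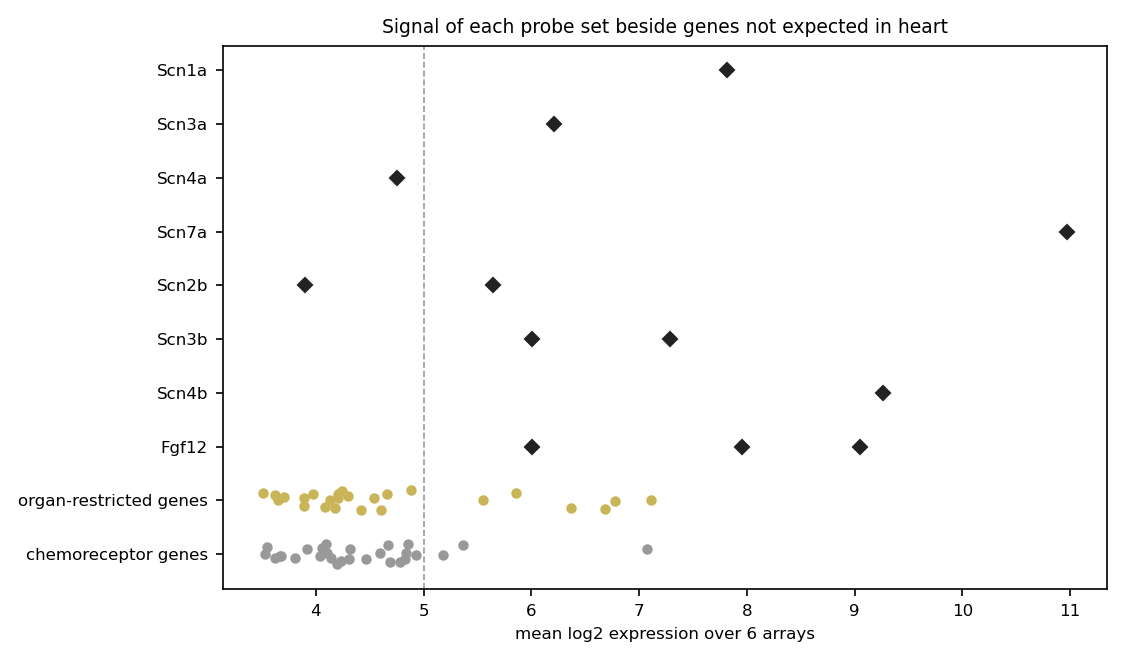
Mean log2 expression over 6 arrays (horizontal) of each probe set of the 8 genes (black diamonds), of 25 probe sets of organ-restricted genes (yellow) and of 28 probe sets of chemoreceptor genes (grey, scattered vertically for visibility), with the 90th percentile of the chemoreceptor probe sets dashed at 5.0. Scn7a at 10.97, Scn4b at 9.26 and the brightest Fgf12 probe set at 9.05 stand clear of both guides, whereas Scn4a at 4.75 and the dimmer Scn2b probe set at 3.90 lie among them.

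None of the 12 probe sets passed the threshold of the strain comparison. Limma called 0 of 12, against 0.0354% of all probe sets. At an unadjusted p under 0.05 there were 3 of 12, against 6.67% of all, and all 3 were lower in the congenic heart, against 3.10% of all probe sets in that direction. They belong to Scn1a, Scn4b and Fgf12, and they are also the 3 of 12 in which every congenic array lay below every Dahl S array, against 6.90% of all probe sets. In the other 9 probe sets the strains overlapped. Counting only direction, 5 of 12 probe sets were below 0 against 49.2% of all, and the median difference over the 12 was 0.009 against 0.002 over all probe sets. The median size of the difference without its sign was 0.08 for the 12 and 0.06 for all. In bulk heart RNA, fewer cells of a type and less RNA per cell cannot be told apart.

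**Figure D2:**
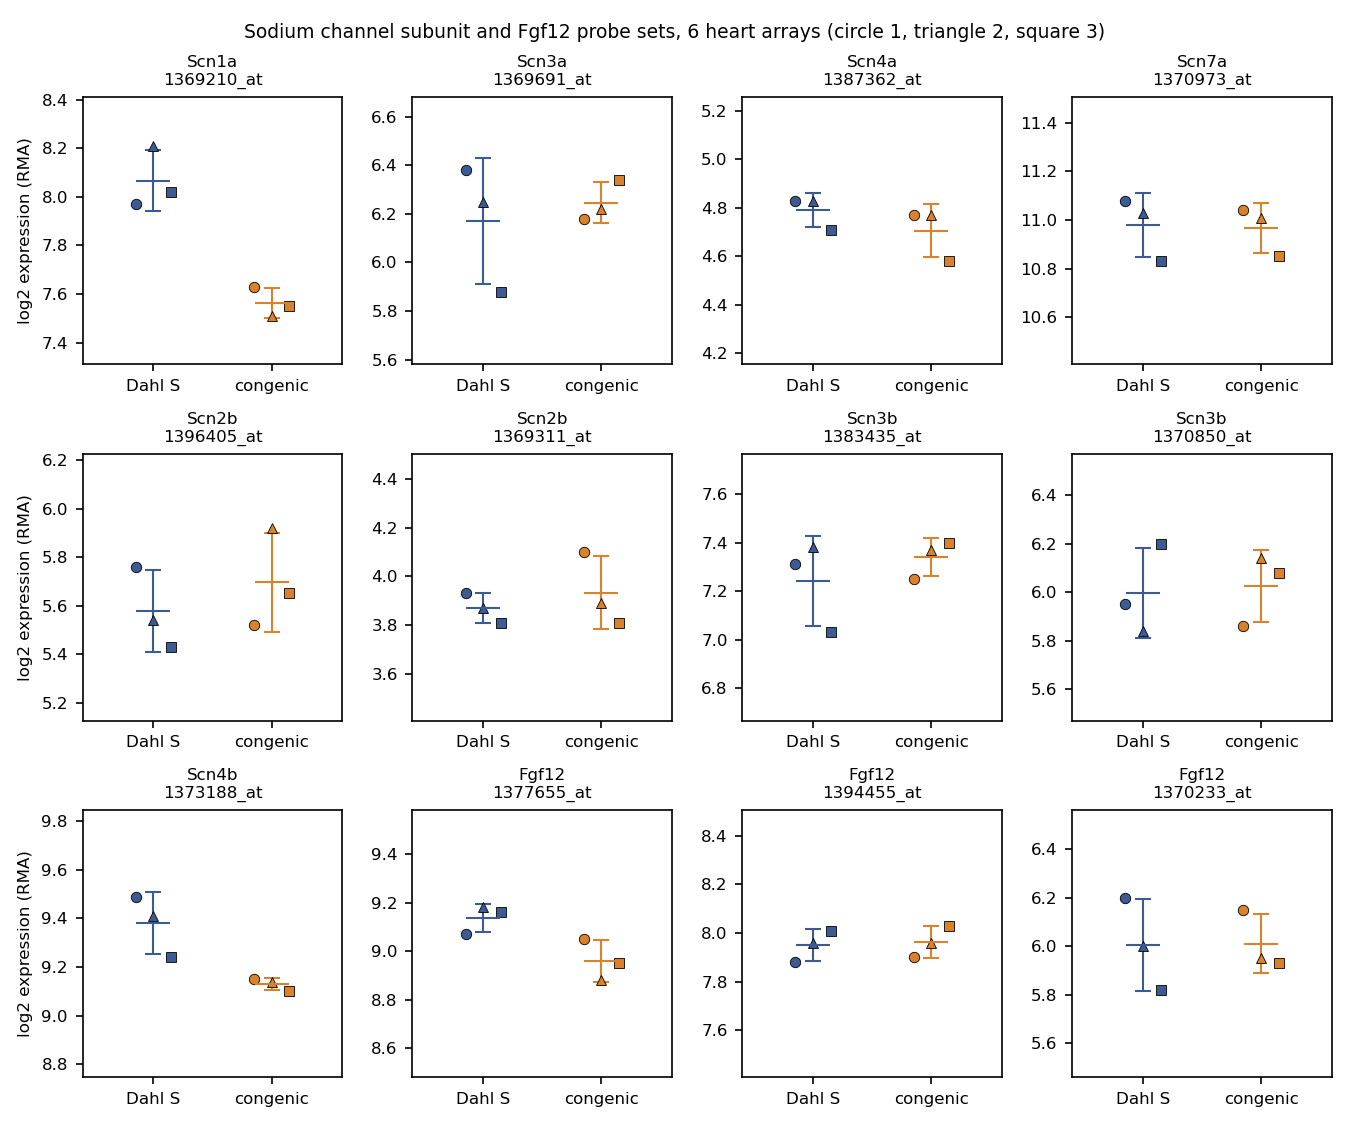
Log2 expression (RMA) of the 12 probe sets on the 3 Dahl S arrays (blue) and the 3 congenic arrays (orange), with array 1 as a circle, 2 as a triangle and 3 as a square, and bars for the mean and SD. Each panel spans the same height of 1.1 log2 units around its own middle. In Scn1a, Scn4b and the brightest Fgf12 probe set (1377655_at) all congenic points lie below all Dahl S points, and in the other 9 panels the strains overlap.

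Among the alpha subunits, Scn1a stood lower in the congenic heart. Scn1a encodes a channel best known from inhibitory neurons of the brain, and small amounts of it have been described in heart muscle cells. Its probe set (1369210_at) read 7.97, 8.21 and 8.02 on Dahl S arrays 1, 2 and 3 and 7.63, 7.51 and 7.55 on congenic arrays 1, 2 and 3. The lowest Dahl S array lay 0.34 above the highest congenic array, and no array stood between the groups. The means were 8.07 ± 0.13 and 7.57 ± 0.06 (log2 expression, SD, n = 3 each), a difference of -0.50 (SE 0.08, 95% interval -0.68 to -0.32). On the linear scale the congenic signal was 70.6% of the Dahl S signal (95% interval 62.4% to 79.9%). The unadjusted p was 0.000219, and the limma adjusted p of 0.307 did not pass. Counting Scn1a itself, 37 of 31042 probe sets (0.119%) were lower by at least as much. An exact permutation test over the arrays gave p = 0.10 (two-sided), which is the smallest that 3 arrays against 3 can give.

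The Scn1a difference was much the same in size whichever arrays were used. With 1 array left out it ran from -0.55 (without Dahl S array 1) to -0.43 (without Dahl S array 2). It was -0.50 when only the 4 arrays with dimmer hybridization controls were compared, and -0.51 between the remaining 2. Its adjusted p depended on how the variance was modelled. It was 0.0454 with a mean-variance trend and a robust prior, where limma called 23 probe sets in all, and it ran from 0.153 to 0.993 over the 13 other alternatives, above 0.05 in each.

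**Figure D3:**
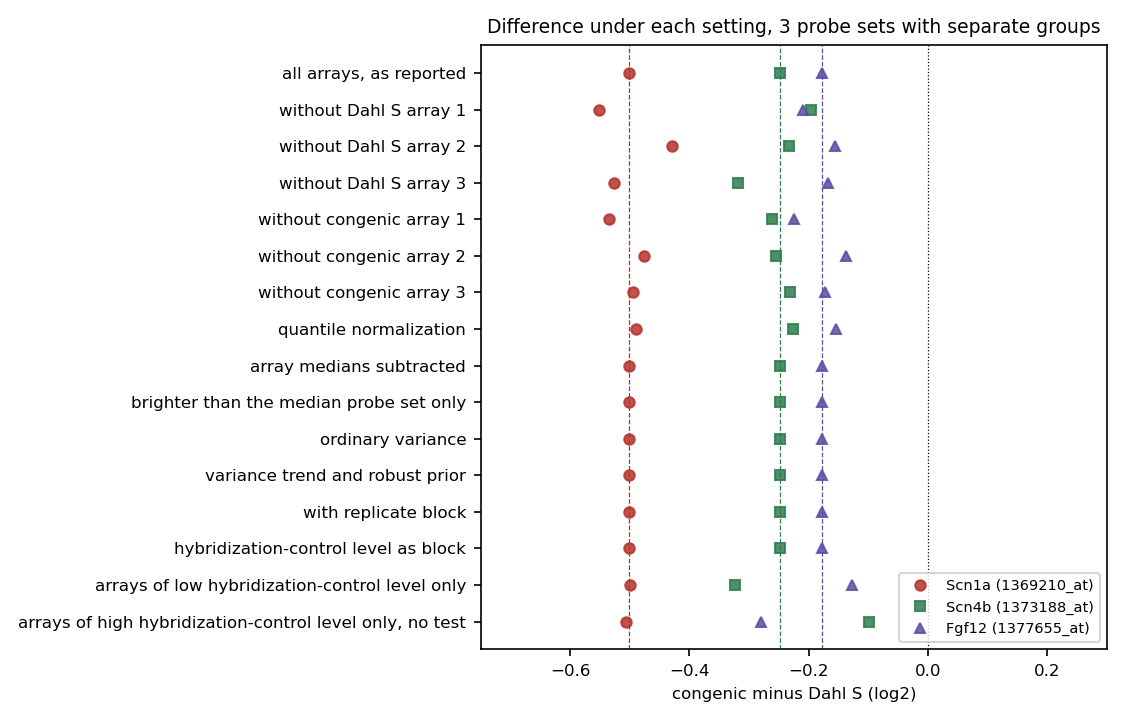
Congenic minus Dahl S difference (log2, horizontal) of Scn1a, Scn4b and the brightest Fgf12 probe set under each setting (rows), with dashed lines at the values from all arrays. Scn1a stays between -0.55 and -0.43 in every row, while Scn4b runs from -0.32 to -0.10 and Fgf12 from -0.28 to -0.13.

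Scn1a lies in a group of alpha subunit genes on chromosome 3 (order from the rat RefSeq table, assembly GRCr8), with Scn3a and Scn2a on one side and Scn9a and Scn7a directly on the other. The other measured channel genes of this group did not show its difference. Scn3a, a channel of the embryonic brain, read 6.38, 6.25 and 5.88 on the Dahl S arrays and 6.18, 6.22 and 6.34 on the congenic arrays. The congenic values all fell inside the Dahl S range, and the difference was 0.08 (SE 0.13, 95% interval -0.21 to 0.37, limma adjusted p = 0.932). Scn2a, a channel of excitatory neurons, differed by -0.01 and Scn9a, a channel of pain-sensing neurons, by 0.01, both on probe sets as dim as the receptor guide (means 4.21 and 3.69). Of the 20 measured genes nearest Scn1a, 10 on each side and among them Scn3a, Scn2a, Scn9a and Scn7a, limma called 0. Of these 20, 2 had an unadjusted p under 0.05, against 6.67% of all probe sets. The lowest and highest differences were -0.29 and 0.18 (median 0.01).

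Scn7a gave a strong and even signal. It encodes an atypical sodium channel, known as a sensor of sodium concentration in glia and not as a source of action potentials. The values were 11.08, 11.03 and 10.83 on the Dahl S arrays and 11.04, 11.01 and 10.85 on the congenic arrays. Both strains spanned nearly the same range. The difference was -0.01 (SE 0.08, 95% interval -0.21 to 0.19, limma adjusted p = 0.988), an interval that leaves out a difference as large as that of Scn1a.

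Scn4a, the alpha subunit of skeletal muscle, had the dimmest alpha subunit probe set among the 4. It read 4.83, 4.83 and 4.71 on the Dahl S arrays and 4.77, 4.77 and 4.58 on the congenic arrays, so the groups overlapped, with a difference of -0.08 (SE 0.07, 95% interval -0.25 to 0.09, limma adjusted p = 0.861). Because this signal lay within that of genes not expected in heart, a level of Scn4a mRNA could not be told from background. Scn4a is the only one of the 8 genes on chromosome 10, the chromosome of the Lewis segment. In the GRCr8 table it stands 1528th among the protein-coding genes of that chromosome, where Rffl, the candidate gene of earlier studies of this congenic strain, stands 1047th, and whether the segment reaches Scn4a is not known here. Of the 20 measured genes nearest Scn4a, limma called 0 and 0 had an unadjusted p under 0.05, against 6.67% of all probe sets.

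Among the beta subunits, Scn4b was lower in the congenic heart by a smaller amount than Scn1a, and it did not pass. Scn4b encodes a beta subunit that is bound to the alpha subunit by a disulfide bridge and is linked to resurgent sodium current and to heart rhythm disorders. Its probe set (1373188_at) read 9.49, 9.41 and 9.24 on Dahl S arrays 1, 2 and 3 and 9.15, 9.14 and 9.10 on the congenic arrays. The congenic values were nearly equal, and Dahl S array 3 came within 0.09 of them. The means were 9.38 ± 0.13 and 9.13 ± 0.03 (log2 expression, SD, n = 3 each), a difference of -0.25 (SE 0.07, 95% interval -0.42 to -0.08, limma adjusted p = 0.731, unadjusted p = 0.00994). The congenic signal was 84.1% of the Dahl S signal (95% interval 74.8% to 94.7%). The exact permutation p was 0.10, again the smallest possible. The difference was -0.32 over the 4 arrays with dimmer hybridization controls and -0.10 between the remaining 2, and with 1 array left out it ran from -0.32 to -0.20.

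Scn2b, which encodes the other disulfide-linked beta subunit, adjoins Scn4b on chromosome 8 with no protein-coding gene between them. Its brighter probe set (1396405_at) read 5.76, 5.54 and 5.43 on the Dahl S arrays and 5.52, 5.92 and 5.65 on the congenic arrays. The highest value was congenic and the lowest Dahl S, but the groups overlapped, with a difference of 0.12 (SE 0.12, 95% interval -0.16 to 0.39, limma adjusted p = 0.882). The dimmer probe set (1369311_at), from 3.81 to 4.10 over all arrays, differed by 0.06 and lay within the background guides. The 250 bases before the start of each gene are shown for this neighbouring pair and for Fgf12, the genes whose arrays separated (Scn4b, 1 probe set of Fgf12) beside one whose arrays did not (Scn2b). They are from RefSeq, build GRCr8, on the plus strand: chr8:54343623-54343872 for Scn4b, chr8:54322133-54322382 for Scn2b and chr11:85501697-85501946 for Fgf12. Capitals mark the E-box CACCTG, and also the GC box (letters GGGCGG), on either strand.
Scn4b: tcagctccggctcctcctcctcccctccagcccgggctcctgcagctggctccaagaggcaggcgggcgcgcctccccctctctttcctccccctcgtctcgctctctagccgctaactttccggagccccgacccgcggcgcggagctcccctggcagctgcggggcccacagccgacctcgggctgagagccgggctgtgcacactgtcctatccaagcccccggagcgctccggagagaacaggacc
Scn2b: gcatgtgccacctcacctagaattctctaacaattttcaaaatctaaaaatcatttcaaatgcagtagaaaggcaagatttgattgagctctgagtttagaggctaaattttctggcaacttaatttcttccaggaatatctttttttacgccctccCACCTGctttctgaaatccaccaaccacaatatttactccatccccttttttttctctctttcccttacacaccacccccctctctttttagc
Fgf12: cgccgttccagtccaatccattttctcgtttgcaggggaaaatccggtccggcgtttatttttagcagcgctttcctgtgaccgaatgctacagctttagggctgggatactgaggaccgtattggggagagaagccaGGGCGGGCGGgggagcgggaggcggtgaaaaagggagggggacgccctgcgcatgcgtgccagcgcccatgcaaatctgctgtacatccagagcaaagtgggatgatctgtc

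The table held such a sequence for 6 of the 8 genes, all but Scn1a and Scn3b. The stretch before Scn4b was 71.6% G and C with 21 CpG dinucleotides and that before Fgf12 58.0% with 17, whereas that before its neighbour Scn2b was 38.8% with 1, against medians of 51.2% and 5 over the 33469 promoters of the table. Scn3a had 41.6% with 4, Scn4a 62.8% with 4 and Scn7a 56.0% with 2. Each sequence was searched on both strands for the TATA box (letters TATAAA), the T-box site (letters AGGTGTGA), the GATA site (letters AGATAA), the E-box (letters CACCTG) and the GC box (letters GGGCGG). The T-box and E-box motifs can share letters. The E-box was found before Scn4a and Scn2b (15.9% of all promoters hold it) and the GC box before Scn7a and at 2 overlapping places before Fgf12 (30.5%). The letters of the TATA box, the T-box site and the GATA site, held by 12.9%, 0.959% and 10.3% of all promoters, are not in these 6 windows.

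Scn3b encodes a beta subunit that binds the alpha subunit without a disulfide bridge. Its brighter probe set (1383435_at) read 7.31, 7.38 and 7.03 on the Dahl S arrays and 7.25, 7.37 and 7.40 on the congenic arrays. Dahl S array 3 stood below the other 5 arrays, which lay within a narrow band. The difference was 0.10 (SE 0.10, 95% interval -0.13 to 0.33, limma adjusted p = 0.875), and without Dahl S array 3 it was -0.005. The dimmer probe set (1370850_at) read 5.95, 5.84 and 6.20 on the Dahl S arrays and 5.86, 6.14 and 6.08 on the congenic arrays, with a difference of 0.03 (SE 0.11, limma adjusted p = 0.977). Here Dahl S array 3 was the highest of the 6, so the 2 probe sets of Scn3b placed that array at opposite ends. Over the 12 probe sets, Dahl S array 3, which is also the Dahl S array of high hybridization-control level, was the lowest Dahl S array in 8. The same count over all probe sets was not made, and some of the 12 share a gene. The 8 can therefore not be read as particular to these genes. The part of the hybridization-control level in these values was not tested beyond the fits within and across it.

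Fgf12, described as the main FGF homologous factor of the human heart, was read by 3 probe sets, of which 1 had groups that did not overlap. The brightest (1377655_at) read 9.07, 9.18 and 9.16 on the Dahl S arrays and 9.05, 8.88 and 8.95 on the congenic arrays. The groups were separate by only 0.02. The difference was -0.18 (SE 0.07, 95% interval -0.33 to -0.02, limma adjusted p = 0.736, unadjusted p = 0.0286), with the congenic signal at 88.4% of the Dahl S signal. With 1 array left out it ran from -0.22 to -0.14, and the unadjusted p stayed under 0.05 in 8 of 14 alternatives.

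The middle Fgf12 probe set (1394455_at) read 7.88, 7.96 and 8.01 on the Dahl S arrays and 7.90, 7.96 and 8.03 on the congenic arrays, nearly the same values in both strains. Its difference was 0.01 (SE 0.06, 95% interval -0.13 to 0.16, limma adjusted p = 0.985). The dimmest (1370233_at) read 6.20, 6.00 and 5.82 on the Dahl S arrays and 6.15, 5.95 and 5.93 on the congenic arrays, with a difference of 0.01 (SE 0.11, limma adjusted p = 0.995). The log2 ratio of the brightest to the middle probe set within each array was 1.19, 1.22 and 1.15 on the Dahl S arrays and 1.15, 0.91 and 0.92 on the congenic arrays, lower by 0.19 on average, with overlapping groups (exact permutation p = 0.20, two-sided, 1 of 5 such ratios computed, the others with p from 0.40 to 1.00). With 3 arrays against 3 the smallest p this test can give is 0.10, so it cannot settle whether the Fgf12 probe sets differ. Which part of the transcript each probe set reads is not known here.

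**Figure D4:**
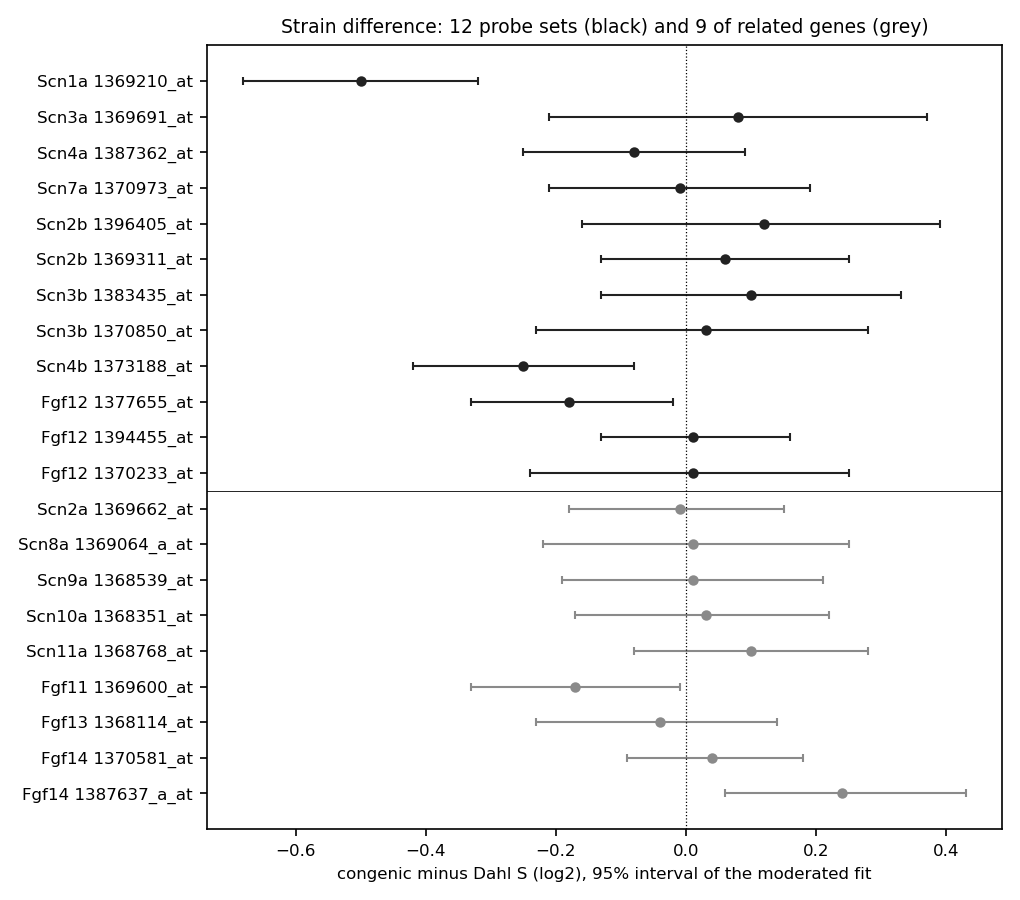
Congenic minus Dahl S difference (log2, horizontal) with its 95% interval from the moderated fit, for the 12 probe sets of the 8 genes (black) and 9 probe sets of the other measured sodium channel and FGF homologous factor genes (grey). Scn1a at -0.50, Scn4b at -0.25 and 1 Fgf12 probe set at -0.18 have intervals below 0 among the black points, and the widest black interval reaches 0.29 to either side.

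The other measured genes of these families showed no called difference. Of 5 further alpha subunit genes limma called 0, and 0 had an unadjusted p under 0.05. Besides Scn2a and Scn9a these were Scn8a, a channel of the axon initial segment (0.01), and Scn10a (0.03) and Scn11a (0.10), both known from sensory neurons. The Scn8a probe set lay within the background guides (mean 4.32, with 12 of 28 receptor probe sets at least as bright). For Scn10a (6.35) and Scn11a (5.7), 4 and 5 of the 25 organ-restricted probe sets were at least as bright. Of the 3 other FGF homologous factor genes limma called 0. Fgf13, the main such factor of the mouse heart, read 9.53, 9.67 and 9.40 on the Dahl S arrays and 9.57, 9.42 and 9.48 on the congenic arrays, with a difference of -0.04 (SE 0.08, 95% interval -0.23 to 0.14, limma adjusted p = 0.941). Fgf11 differed by -0.17 (unadjusted p = 0.0432, limma adjusted p = 0.744) on a dim probe set, with means of 5.14 (Dahl S) and 4.97 (congenic). Fgf14 differed by 0.04 on its brighter probe set and by 0.24 on the other (unadjusted p = 0.0161, limma adjusted p = 0.736), both within the background guides.

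Genes whose proteins anchor, modify or remove sodium channels held no called difference. Of the 25 listed, 21 were measured, limma called 0, and an unadjusted p under 0.05 was found for 4 with a negative and 0 with a positive difference, against 3.10% and 3.57% of all probe sets. In all, 18 of 21 were below 0, against 49.2% of all probe sets, and the median difference was -0.03. Of the cardiomyocyte markers 7 of 9 were likewise below 0, with a median of -0.02 and 0 with an unadjusted p under 0.05. Ptpn3, a tyrosine phosphatase that binds the tail of a channel alpha subunit, had a difference of -0.25 (SE 0.06, limma adjusted p = 0.721). Nedd4l, a ubiquitin ligase that takes sodium channels off the membrane, had -0.18 (SE 0.07, limma adjusted p = 0.736). The others were the ankyrin genes Ank2 (-0.14) and Ank3 (-0.13), which tether channels to the membrane skeleton and were named after their values had been seen. Transcription factor genes linked to sodium channel expression, such as Tbx5 and Gata4, held 0 of 9 measured with an unadjusted p under 0.05 (median 0.05), and those with the smallest p were Rest, a repressor of neuronal genes (0.12, limma adjusted p = 0.781), and Nkx2-5 (-0.08, limma adjusted p = 0.843).

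Over the 6 arrays, the genes most like Scn1a in pattern were Ptpn3 (Pearson r = 0.996), Tmem38b, which encodes an intracellular cation channel (0.996), and the connexin gene Gja3 (0.994), among probe sets brighter than the median. For Scn4b, 41 probe sets reached an r of 0.95, led by Pcnt (0.995), Tnni1 (0.990) and Fem1a (0.989), and for the brightest Fgf12 probe set the leading genes were Sf3b2 (0.999), Slc22a5 (0.997) and Gtpbp10 (0.995). An r of 0.95 or more with Scn1a was reached by 99 of 12262 probe sets. They describe likeness on these arrays, which share the strain difference and their normalization.

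Marker genes of the cells that could carry these channels were compared on the same arrays, by the summed linear signal of each list in units of 1000. Neuron markers, 15 of 16 measured, ran from 0.955 to 1.14 on the Dahl S arrays and from 1.00 to 1.18 on the congenic arrays. Of the 15, 12 were above 0 and 3 below (median 0.08). An unadjusted p under 0.05 was found for 3 with a positive and 1 with a negative difference, against 3.57% and 3.10% of all probe sets. Conduction system markers, 12 of 13 measured, ran from 2.23 to 2.35 and from 2.17 to 2.27, with 0 past that p in either direction, and skeletal muscle markers, 12 of 13 measured, from 9.98 to 10.5 and from 9.85 to 10.2, also with 0. Nearly all of the skeletal muscle sum came from the Myh1 probe set (mean log2 level 13.27 on the Dahl S arrays), and the other 11 markers had Dahl S means of at most 6.17 (Tnnt3). The other skeletal myosin genes listed, Myh2 and Myh4, had Dahl S means of 4.46 and 3.41. Whether the Myh1 probe set reads Myh1 mRNA alone was not tested, so its sum is not a measure of skeletal muscle. Atrial markers (5 of 6 measured) ran from 62.2 to 63.5 and from 62.1 to 66.6, and ventricular markers (3 of 3) from 31.3 to 32.2 and from 30.9 to 31.4. All these ranges overlapped between the strains. The sums of fibroblast markers (10 of 10) did not overlap, at 48.0 to 52.4 on the Dahl S arrays and 53.0 to 60.3 on the congenic arrays, with all 10 genes above 0, and neither did mural cell markers (9 of 9), at 15.2 to 16.2 and 16.4 to 17.3. Sums rest on the brightest genes, such as Col3a1 for fibroblasts and Des, also abundant in heart muscle cells, for mural cells. By the median over genes of an array's log2 deviation from each gene's 6-array mean, which weights genes equally, both lists overlapped. Fibroblast markers then ran from -0.12 to -0.01 (Dahl S) and from -0.02 to 0.14 (congenic), and mural cell markers from -0.09 to 0.10 and from 0.00 to 0.10. An unadjusted p under 0.05 was reached by 2 of 10 fibroblast and 0 of 9 mural cell genes, against 6.67% of all probe sets. Macrophage markers (10 of 10) ran from 4.02 to 5.25 and from 4.90 to 5.04, sums that overlapped and that Lyz2 led. Their median deviations did not overlap, at -0.19 to 0.02 on the Dahl S arrays and 0.04 to 0.15 on the congenic arrays. Of the macrophage markers 9 of 10 were above 0 (median 0.19). An unadjusted p under 0.05 was found for 4 of them, all higher, against 3.57% of all probe sets in that direction. The sums of endothelial markers (9 of 10) ran from 13.5 to 14.3 and from 14.0 to 14.6, and Schwann cell markers (9 of 12) from 2.61 to 2.99 and from 2.80 to 3.19. In each of these 2 lists 7 genes were above 0 and 2 below (medians 0.03 and 0.02). An unadjusted p under 0.05 was found for 1 of 9 in each, higher in the congenic heart, against 3.57% of all probe sets. Limma called 0 genes of the marker lists, and the genes of smallest p had limma adjusted p from 0.721 to 0.985. Their differences were -0.27 for Gap43 and 0.23 for Prph among neuron markers, -0.22 for Irx3 and 0.12 for Isl1 among conduction system markers, and 0.15 for Tnni2 and -0.14 for Tnnt3 among skeletal muscle markers. For the chambers and muscle cells they were 0.08 for Myl4 and 0.05 for Myl7 (atrium), -0.03 for Myl2 and -0.01 for Irx4 (ventricle), and -0.05 for both Tnnt2 and Ryr2. Among the other cells they were 0.39 for Col1a2 and 0.24 for Col1a1 (fibroblasts), 0.25 for Acta2 and 0.17 for Pdgfrb (mural cells), 0.23 for Fcgr3a and 0.40 for Adgre1 (macrophages), 0.13 for Eng and 0.14 for Pecam1 (endothelium), and 0.26 for Ncam1 and 0.15 for Mag (Schwann cells). The part of these markers in the differences of Scn1a, Scn4b and Fgf12 was not tested.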

How the data were processed

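Values for 6 arrays were used as deposited: log2 expression per probe set, made by the authors with RMA (background correction and normalization between arrays), per the submitters' processing notes. No RMA version was given in the sources used here. Of 31099 probe sets, 57 controls were set aside. The platform annotation, with symbols updated by gene ID through the GRCr8 RefSeq table, gave 20826 probe sets 1 gene, 436 several and 9780 none.

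The strain difference was fitted by limma 3.58.1 (R 4.3.3; lmFit and eBayes with no term but strain). P-values were adjusted over 31042 probe sets by Benjamini-Hochberg, and an adjusted p under 0.05 was a call. Intervals are at 95% confidence. The fit was tested on simulated data. A gene list used the brightest probe set per gene. Exact permutation tests were two-sided. Alternatives changed the arrays, normalization, dim-probe filter, variance model and blocks.

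The genes and lists were chosen with earlier results of these data known. Named were all probe sets of the 8 genes, all related channel and factor genes, the 2 genes of smallest p in each list, and the 3 genes of highest r. The 2 arrays of high hybridization-control level and the ratios between probe sets were added after seeing the data. Plots used matplotlib 3.10.9 in Python 3.11.15.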

Additional observations from a re-analysis of the deposited data

How the results depend on the processing

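Limma called 0 of the 12 probe sets in each alternative except the mean-variance trend with a robust prior, which called 1 (Scn1a); only 6 of the 12 were tested with the filter on dim probe sets. Over all probe sets the count of 11 became 23 with that setting, 0 with ordinary variances, 5 with the replicate block, 5 with hybridization-control level as a block, 2 within the arrays of low level, and 5 or 6 with 1 array left out. With 1 array left out, 1448 (without congenic array 2) to 3131 (without Dahl S array 1) probe sets had an unadjusted p under 0.05, and 2 or 3 of the 12. The median difference over the 12 ran from -0.077 (without Dahl S array 3) to 0.022, was -0.095 over the 6 brighter than the median probe set, which hold fewer genes, and -0.062 within the arrays of low level. The causes of the other shifts were not tested.

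Scn1a, Scn4b and the brightest Fgf12 probe set kept their direction in every alternative. Small differences of the others changed sign. Within the arrays of low level these were Fgf12 1370233_at (-0.056), Scn2b 1396405_at (-0.068), Scn3a (-0.054) and Scn3b 1383435_at (-0.021). Between the 2 arrays of high level they were Fgf12 1394455_at (-0.046), Scn3b 1370850_at (-0.067), Scn4a (0.060) and Scn7a (0.182), and with quantile normalization Fgf12 1370233_at (-0.019). With 1 array left out, the ranges that crossed 0 were -0.086 to 0.10 for Fgf12 1370233_at, -0.023 to 0.045 for Fgf12 1394455_at, -0.024 to 0.12 for Scn2b 1369311_at, -0.068 to 0.19 for Scn3a, -0.053 to 0.13 for Scn3b 1370850_at, -0.005 to 0.17 for Scn3b 1383435_at and -0.085 to 0.047 for Scn7a. The cause was not tested.

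The labels number the arrays 1 to 3 in both strains, but same-numbered arrays did not deviate together (correlations -0.07, -0.06 and -0.18), so the number was not taken as a pairing. With the replicate block Scn1a had a limma adjusted p of 0.811. In that fit 2 of the 12 had an unadjusted p under 0.05, against 1722 of all 31042 probe sets. With 3 arrays a strain, the 95% intervals reached 0.15 to 0.29 to either side. Differences beyond that width could also miss a call, as that of Scn1a did (-0.50, limma adjusted p = 0.307). The absence of calls therefore does not show that the strains are equal. On the probe set of Scn4a and the dimmer one of Scn2b the signal could not be told from background.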

Other observations

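Other routes of sodium into and out of heart cells were also measured. Of 29 listed genes of exchangers, pumps, cotransporters and epithelial or acid-sensing channels, 25 were measured, limma called 0, and 0 had an unadjusted p under 0.05, with a median difference of 0.03. Slc8a1, the sodium-calcium exchanger of heart muscle, had a difference of -0.07 (SE 0.06), Atp1b1, a subunit of the sodium pump, 0.03 (SE 0.06), and Fxyd1, phospholemman, which restrains that pump, 0.00 (SE 0.05). These 3 were named after their values had been seen. The smallest p belonged to the acid-sensing channel gene Asic1, with a difference of 0.19 (limma adjusted p = 0.751), and to Fxyd3, another pump regulator, with -0.25 (limma adjusted p = 0.752).

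For the genes whose strains overlapped, the probe sets most like the brightest one over the 6 arrays were those of Cops3 for Scn3a (Pearson r = 0.995), Rbbp6 for Scn4a (0.994), Rngtt for Scn7a (0.993), Fam178b for Scn2b (0.984) and Ctnnbip1 for Scn3b (0.995). An r of 0.95 or more was reached by 9 (Scn7a) to 34 (Scn3a) probe sets, over 6 arrays.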
